A study of Arabidopsis thaliana with 12 samples.

Results

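LHB1B2, PSAN, PSBY and PSBW are 4 nuclear genes for subunits of the photosystems and their antenna, measured in dark-adapted Arabidopsis thaliana. They are genes of these complexes picked by name from the array, each from a feature whose annotation lists that gene alone. The choice was made with earlier results of these data known, so the p-values below are not those of a blind choice. The genes make up 4 of 3439 features, of which 692 list a single gene. The series holds 12 single-colour arrays of total RNA from plants of the Landsberg ecotype. On 6 arrays the RNA came from WT and on 6 from laf6, and all plants of both groups were dark adapted. The labels describe laf6 as a mutant without the transporter atABC1, a protein now named SUFB that takes part in assembling iron-sulfur clusters in plastids. They give no age, tissue, growth light or length of darkness, and they name no separate plants or cultures for the arrays of a group. The p-values therefore reflect array-to-array spread alone, and that spread may be technical.

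Photosystem II and photosystem I are pigment-protein complexes of the thylakoid membrane that work in series to move electrons from water to ferredoxin, and light-harvesting antenna proteins pass absorbed energy to them. Their core proteins are mostly encoded in the plastid genome, whereas the antenna and many small subunits are encoded in the nucleus and imported. Transcripts of such nuclear genes are known to respond to light, to the state of the plastid and to chlorophyll synthesis. The laf6 mutant is known from work on far-red light signalling.

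The 4 genes have separate roles. LHB1B2 (AT2G34420, also called LHCB1.5) encodes an Lhcb1 protein, a chlorophyll a/b-binding component of the trimeric antenna of photosystem II. In the RefSeq gene order it lies on chromosome 2 beside LHB1B1 (AT2G34430), a gene for another Lhcb1 protein of very similar sequence, so how far the feature measures one copy or several is uncertain and was not tested. PSAN (AT5G64040, chromosome 5) encodes a small photosystem I subunit on the lumen side of the thylakoid, near where plastocyanin docks. PSBY (AT1G67740, chromosome 1) encodes a precursor that is cut into small membrane proteins of photosystem II. PSBW (AT2G30570, chromosome 2) encodes a small membrane protein of photosystem II linked to the joining of the core to its antenna.

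In laf6 the transcripts of LHB1B2, PSAN and PSBY were higher than in WT and that of PSBW was lower. After quantile normalization, PSAN rose 3.30-fold, LHB1B2 rose 2.35-fold, PSBY rose 1.66-fold and PSBW fell 2.47-fold. All 4 passed the threshold of 0.05 in limma with Benjamini-Hochberg adjustment over all features, and for each the 6 laf6 arrays lay on one side of the 6 WT arrays. The sizes depended on the scaling between arrays: the log2 difference of LHB1B2 ran from 1.23 to 2.11 over 5 scalings, and that of PSBW from -1.31 to -0.36, with the call of PSBW lost under 2 of them. Of all 3439 features, 26.2% passed this threshold (12.4% higher and 13.8% lower in laf6) and 17.9% had groups that did not overlap. The genes belong to the bright end of the array, where calls were common. Among the 142 features at least as bright as PSBY, the dimmest of the 4, 83.8% passed (38.0% higher and 45.8% lower), and 77.5% had groups that did not overlap. That all 4 passed is therefore close to what features of this brightness did.

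The deposited intensities run from 0 to 100 on every array and have no absolute unit. For LHB1B2 the lowest, median and highest deposited intensities were 14.1, 17.1 and 23.2 over the WT arrays and 44.4, 59.0 and 68.7 over the laf6 arrays. Every laf6 array was above every WT array, and within each group replicates 1 and 2 were the highest. After normalization the mean went from 19.8 ± 4.66 to 45.6 ± 4.51 (SD, n = 6 each). The log2 difference was 1.23 ± 0.15 (SE; 95% interval 0.90 to 1.56, limma adjusted p = 8.06e-05).

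As deposited, PSAN was the most even of the 4 over the laf6 arrays. Its deposited intensity had a lowest, median and highest value of 3.43, 4.61 and 4.84 in WT and 13.0, 13.9 and 14.9 in laf6. The groups lay far apart, and the coefficient of variation was 11.7% in WT and 5.08% in laf6. The log2 difference after normalization was 1.72 ± 0.10 (95% interval 1.50 to 1.94, limma adjusted p = 2.88e-07). Of the 142 bright features, 14 had a log2 difference at least this high, PSAN included, and of all 3439 features 153 did.

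PSBY had the smallest change of the 4 after quantile normalization. Its deposited intensity had a lowest, median and highest value of 1.93, 2.80 and 3.55 in WT and 3.17, 3.56 and 4.03 in laf6. On this scale the groups overlapped, because WT replicate 4 (3.55) lay above laf6 replicates 3, 4 and 6 (3.17, 3.50 and 3.44). After normalization they did not, with WT arrays from 1.98 to 2.93 and laf6 arrays from 3.32 to 4.83. The log2 difference was 0.73 ± 0.12 (95% interval 0.47 to 0.99, limma adjusted p = 0.000642).

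PSBW was among the brightest features of the WT arrays and went the other way from PSBY, although both encode small subunits of photosystem II. Its deposited intensity had a lowest, median and highest value of 35.3, 41.5 and 53.4 in laf6. In WT the lowest was 58.1, the median 71.2 and the highest at the upper end of the scale, on replicate 2. Every laf6 array was below every WT array, and replicates 1 and 2 were again the highest of each group. The log2 difference after normalization was -1.31 ± 0.11 (95% interval -1.56 to -1.06, limma adjusted p = 6.67e-06). A signal at the upper end of the scale, as on WT replicate 2, may be understated. Without that array the log2 difference was -1.25. Of the 5 scalings, quantile normalization gave the largest fall of PSBW. The fall was smallest with 75th percentile scaling (-0.36), where it did not pass.

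**Figure D1:**
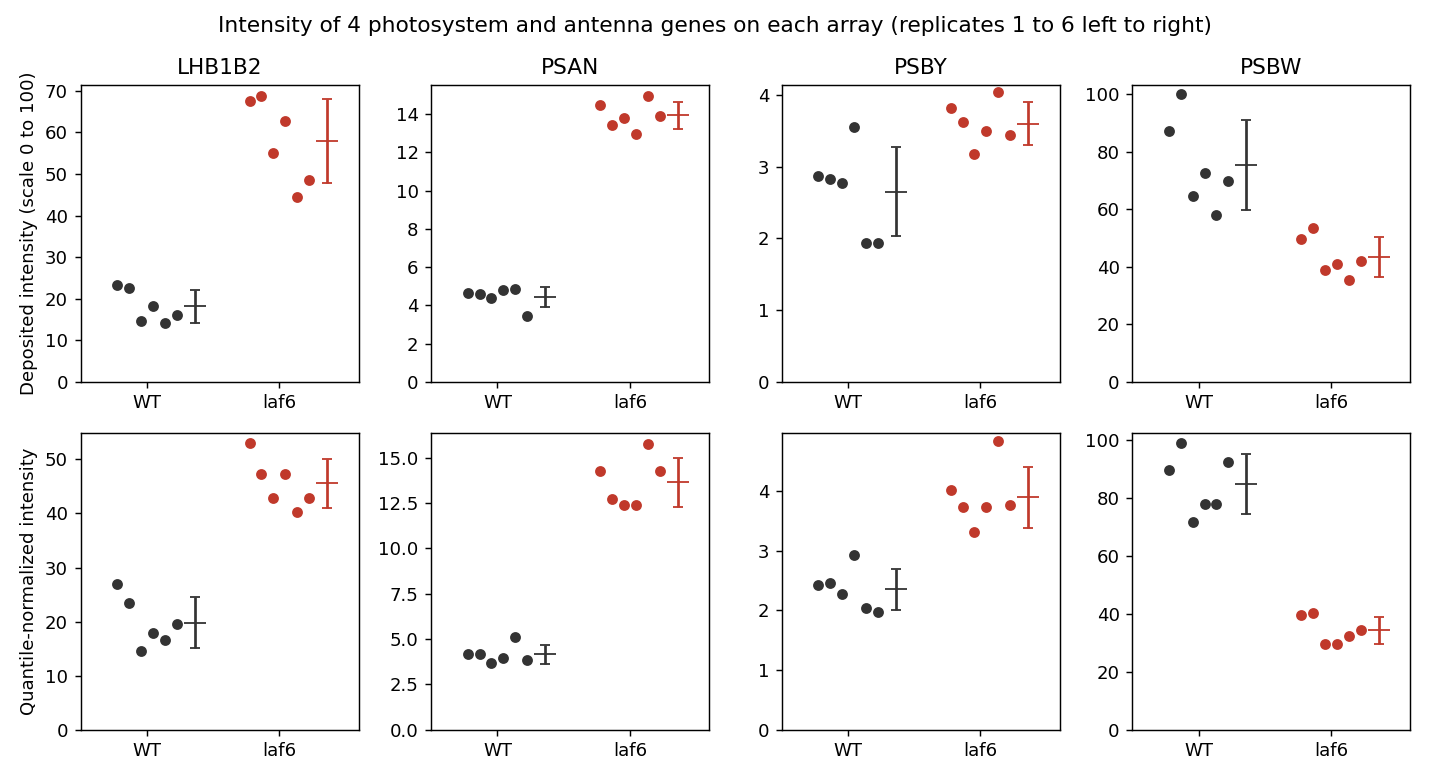
Intensity of LHB1B2, PSAN, PSBY and PSBW on each of the 12 arrays, as deposited (top row, scale 0 to 100) and after quantile normalization (bottom row). Points are arrays, replicates 1 to 6 from left to right within a group, and bars give the mean and SD of 6 arrays. LHB1B2, PSAN and PSBY are higher in laf6 and PSBW is lower, and on the deposited scale the PSBY groups overlap.

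The place of these genes among all features is shown by the plot of log2 difference against mean intensity. The mean log2 intensity of PSBW lay at the 99.8th percentile of features, that of LHB1B2 at the 99.4th, that of PSAN at the 98.1st and that of PSBY at the 95.9th. The median standard error was 0.11 on the log2 scale among the 142 bright features and 0.32 among all features. The median log2 difference was 0.98 over the 4 genes, -0.25 over the bright features and -0.02 over all features. The median absolute log2 difference was 1.27, 1.09 and 0.57 in the same order, so changes of this size were usual among bright features.

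**Figure D2:**
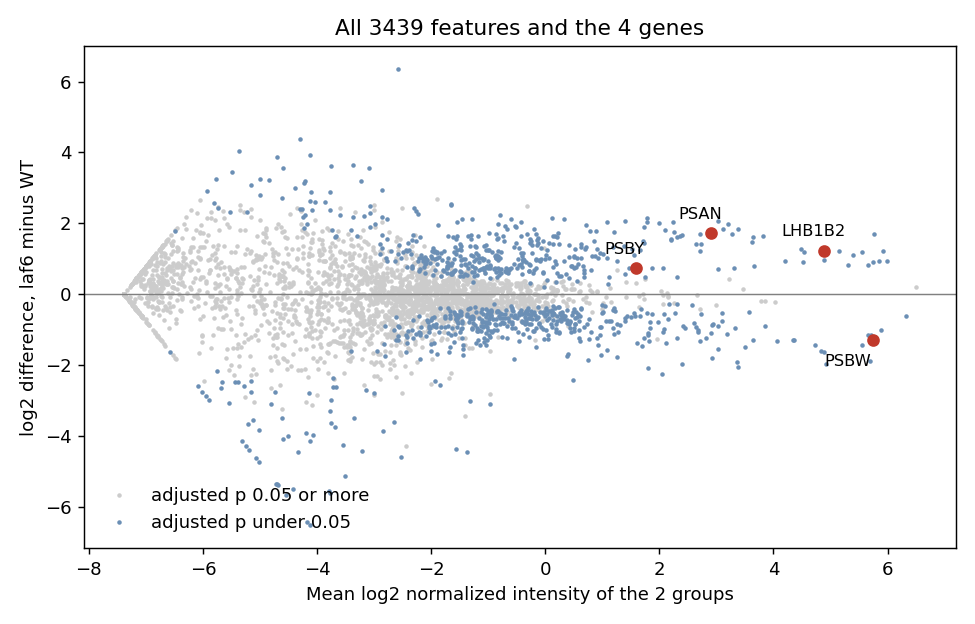
Log2 difference (laf6 minus WT) of all 3439 features against the mean log2 normalized intensity of both groups. Blue points have a limma adjusted p under 0.05, and red points are the 4 genes, which lie in the bright range where 83.8% of 142 features passed.

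The arrays of the groups differed in overall distribution, which touches every change of level. The median deposited intensity was 0.218 to 0.289 over WT arrays and 0.178 to 0.202 over laf6 arrays, and the 20 brightest features held 29.7 to 31.6% of the summed intensity in WT and 39.3 to 41.6% in laf6. Their part in the changes of level was not tested. Under the 5 scalings, the log2 difference of PSAN ran from 1.66 to 2.08 and that of PSBY from 0.47 to 0.90, and both passed the threshold under all 5, as did LHB1B2. PSBW passed under 3 of 5. It missed the threshold with median scaling (-0.45, limma adjusted p = 0.0590) and with 75th percentile scaling (-0.36, limma adjusted p = 0.135), and over 24 alternatives its adjusted p lay between 2.80e-06 and 0.135. With the values as deposited PSBW stood at -0.79, but the median of all features was then shifted by -0.45, which leaves -0.33 relative to it. Set against the median of the 142 bright features, PSBW stood at -1.06 with quantile normalization, at -0.98 with cyclic loess and at -0.45 with the values as deposited. On the same basis PSAN stood at 1.97, 1.95 and 1.99.

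**Figure D3:**
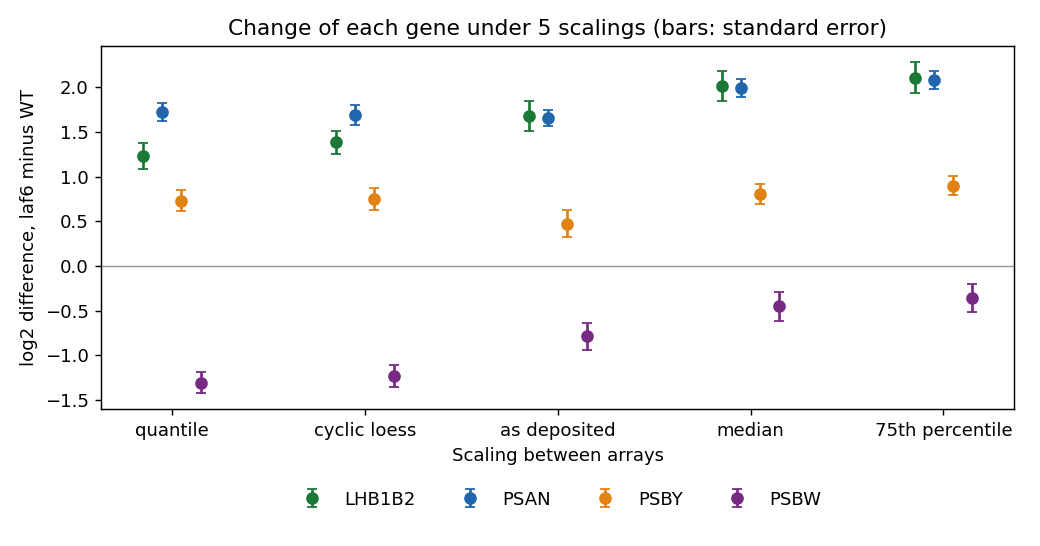
Log2 difference (laf6 minus WT) of each gene under 5 scalings between arrays, with bars for the standard error of the limma fit. PSAN, LHB1B2 and PSBY stay above 0, and PSBW moves from -1.31 with quantile normalization to -0.36 with 75th percentile scaling.

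The rank of a feature within its own array does not change with any rescaling that keeps the order of values. Counted from the brightest feature, PSBW held ranks 2 to 7 on the WT arrays and 15 to 21 on the laf6 arrays. Rank 2, on WT replicate 2, is the mean rank of 3 features tied at the top of the scale. LHB1B2 held ranks 23 to 39 in WT and 11 to 15 in laf6. PSAN moved from ranks 90 to 122 up to ranks 36 to 45, and PSBY from ranks 147 to 197 up to ranks 95 to 133. None of the 4 genes had overlapping ranks between the groups. The share of other features with separate ranks was not computed. By normalized intensity, the groups did not overlap for 17.9% of all 3439 features and for 77.5% of the 142 bright ones. In a two-sided exact permutation test of the percentile rank, each gene differed between the groups (p = 0.00216 in every case, which is the least that 6 against 6 arrays can give, and the adjusted p over the 4 tests was also 0.00216). A lower rank of PSBW shows that other bright features overtook it, not by how much its own transcript changed.

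**Figure D4:**
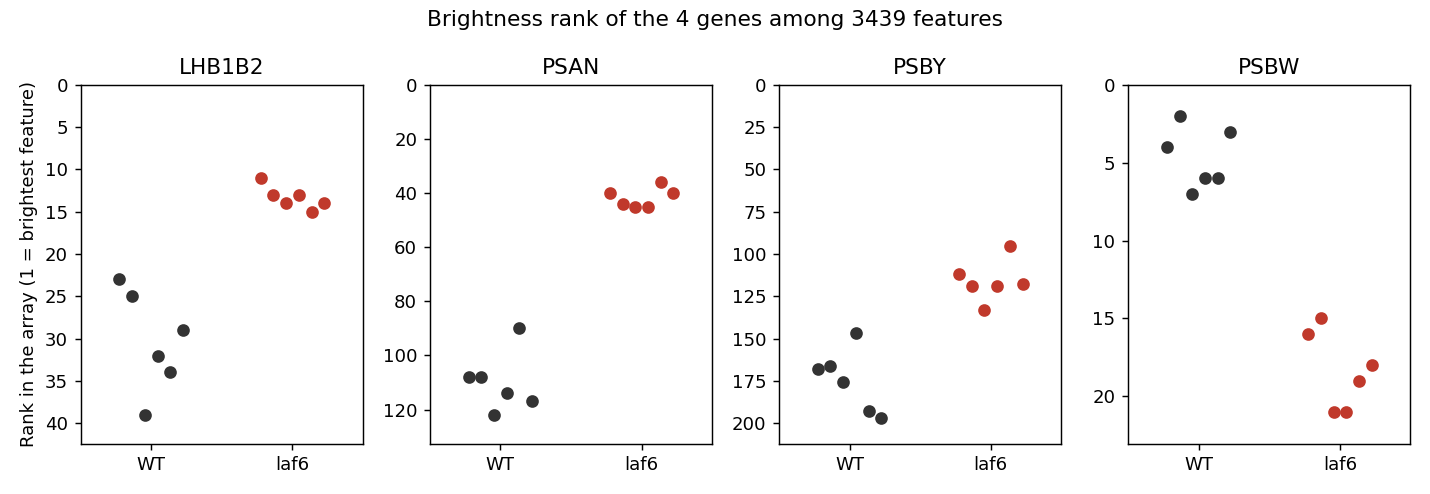
Rank of each gene within its array, with 1 for the brightest of 3439 features and the axis running downward. Each point is an array, replicates 1 to 6 from left to right. PSBW goes from ranks 2 to 7 in WT to 15 to 21 in laf6, and LHB1B2 goes from 23 to 39 to 11 to 15.

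The ratio of a pair of genes on the same array is likewise free of any scale factor of that array, and its shift between groups shows that the pair changed unequally. All 6 pairs were compared on the deposited intensities by a two-sided exact permutation test, and 5 of them shifted (p = 0.00216 in every case, again the least possible, and adjusted p = 0.00260 over the 6 pairs). The ratio of LHB1B2 to PSBW shifted by 2.47 ± 0.07 on the log2 scale (SE, n = 6 each), a 5.54-fold change of the ratio (95% interval 2.31 to 2.62 on the log2 scale). Within groups it was steady, with an SD of 0.09 in WT, the lowest of the 6 pairs, and of 0.14 in laf6. In laf6 the lowest SD was that of PSAN to PSBY (0.09). The ratio of PSAN to PSBW shifted by 2.44 ± 0.17 (95% interval 2.05 to 2.82).

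Between the photosystem II subunits, the ratio of PSBY to PSBW shifted by 1.26 ± 0.17 on the log2 scale (95% interval 0.88 to 1.65), a 2.39-fold change. PSBY also changed less than PSAN of photosystem I and LHB1B2 of the antenna. The ratio of PSAN to PSBY shifted by 1.18 ± 0.13 (95% interval 0.90 to 1.44) and that of LHB1B2 to PSBY by 1.21 ± 0.18 (95% interval 0.80 to 1.60). In these 5 pairs no laf6 array overlapped a WT array, and how often pairs of other features separate was not computed.

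LHB1B2 and PSAN were the pair for which no difference was found. Their ratio shifted by 0.03 ± 0.18 on the log2 scale (95% interval -0.38 to 0.44, exact permutation p = 0.866, adjusted p = 0.866), so a difference in change of up to about the ends of that interval could not be seen. This pair depended on the normalization: after quantile normalization, which moves bright and dim features by different amounts, the shift was -0.49 (exact permutation adjusted p = 0.0238, range over 15 alternatives 0.0238 to 1). The same step moved the shift of LHB1B2 to PSBY from 1.21 to 0.50 and that of PSBY to PSBW from 1.26 to 2.04, both past the threshold either way. Arrays with adjacent replicate numbers may be repeats of the same sample, on which the labels are silent. If so, the exact p-values count too many independent units. As a random block in limma, adjacent numbers had a fitted correlation of 0.19 over all features. With adjacent replicate numbers averaged to 3 samples a group, the smallest p this test can give is 0.1. The limma adjusted p on these averages ran from 0.00433 for PSAN to 0.0351 for PSBY across the genes.

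**Figure D5:**
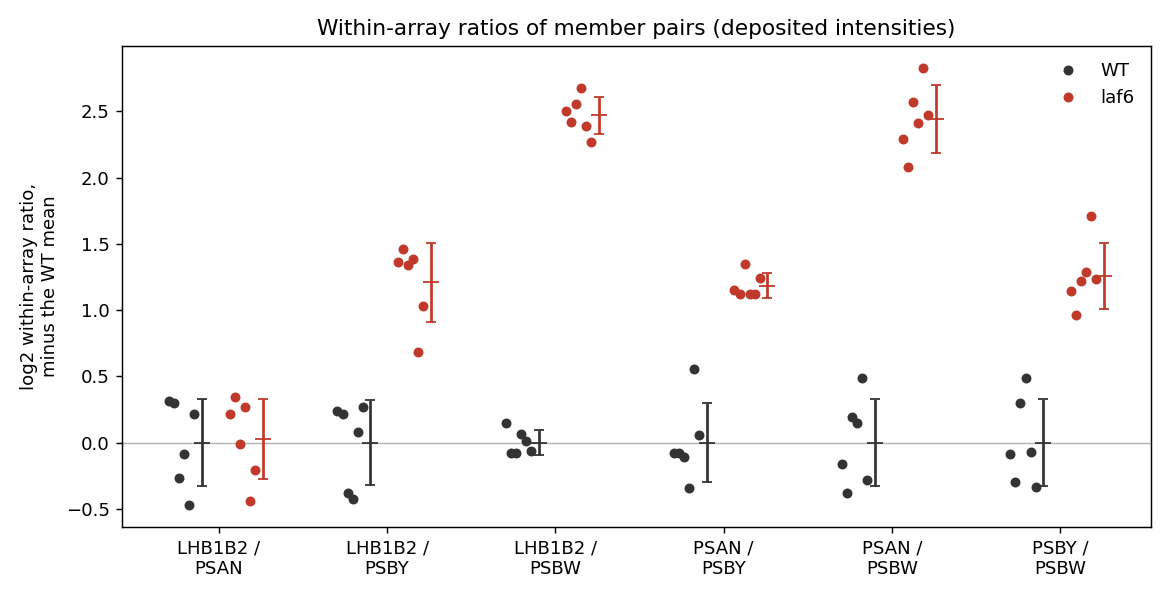
Log2 ratio of each pair of genes within an array, from the deposited intensities, with the WT mean of each pair set to 0. Points are arrays, and bars give the mean and SD of 6 arrays. The groups are apart in 5 pairs and overlap for LHB1B2 to PSAN.

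Replicates 1 and 2 were high for LHB1B2 and PSBW in both groups, and within groups these genes moved together across arrays. The correlation of their log2 normalized values was 0.83 over the 6 WT arrays and 0.58 over the 6 laf6 arrays, given as a description of points that share an array. For PSAN and PSBW it was 0.02 and 0.20, and for PSAN and PSBY it was -0.28 and 0.88. Without replicates 1 and 2 of both groups the log2 difference was 1.33 for LHB1B2, 1.72 for PSAN, 0.76 for PSBY and -1.33 for PSBW, all past the threshold in limma (highest adjusted p = 0.0192, for PSBY).

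The genes listed for photosynthetic complexes mostly lacked a single-gene feature. Of 79 genes in lists of antenna, photosystem I, photosystem II, electron transport, NDH complex and photosystem assembly genes, 10 were measured, the 4 genes above included. A further 5 features listed several genes with at least 1 of the 79 among them and are not named. Of the 10, 4 were higher in laf6, 4 were lower and 2 did not pass, where 24.9% of the 692 single-gene features passed, 10.3% higher and 14.6% lower. The 10 include the 4 bright genes above, and NdhS and AT1G76450 were also brighter than PSBY. Of the 142 bright features 83.8% passed. The lists were chosen with earlier results of these data known, so the counts are descriptions. An excess among photosynthesis genes was not tested and cannot be read from them. The median log2 difference of the 10 was 0.30 with quantile normalization and -0.06 with the values as deposited.

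The third photosystem II gene, PSB27 (AT1G03600), which encodes a lumenal protein of photosystem II assembly and repair, did not pass. Its normalized intensity was 2.38 ± 1.53 in WT and 1.69 ± 0.802 in laf6, as means and SD of 6 arrays (log2 difference -0.13, 95% interval -1.64 to 1.39, limma adjusted p = 0.936). Without replicates 1 and 2 of both groups its log2 difference was -0.70 ± 0.20 (SE), with a limma adjusted p of 0.0510, and with 1 array left out it ran from -0.60 to 0.09. Among genes of assembly and of the NDH complex, which carries electrons around photosystem I, NdhS (AT4G23890), its ferredoxin-binding subunit, fell by 1.09 on the log2 scale. AT1G76450, which encodes a PsbP-domain protein of the lumen, fell by 1.54, and AT1G22700, which encodes a protein needed for photosystem I to accumulate, fell by 0.69 (limma adjusted p of 0.000228 at most over these 3 genes). PIFI (AT3G15840), which takes part in NDH-dependent electron flow, rose by 0.74 but missed the threshold with adjacent replicate numbers averaged (limma adjusted p = 0.0626) and with the values as deposited (0.30, adjusted p = 0.191, range over 24 alternatives 0.000788 to 0.191). NdhN, a further NDH subunit, was listed at 0 on 3 WT and 2 laf6 arrays and did not pass (limma adjusted p = 0.151). Genes of photosystem I and its assembly thus went both ways, with PSAN higher and AT1G22700 lower.

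For each gene, the 3 single-gene features with the most similar profile were sought among 447 with a signal on all 12 arrays, by Pearson correlation of log2 normalized values. All points share the same 12 arrays and the group difference enters each value, so these are descriptions. AT5G52810 was most like LHB1B2 (r = 0.99, Spearman's rho = 0.99), with a smaller log2 difference of 0.73. Within groups, that is, after the group means were removed, its correlation with LHB1B2 was 0.92. Correlations within groups were computed for the closest 3 features only. AT3G09080 was most like PSAN (r = 0.99, rho = 0.97, and r = 0.90 within groups), with a log2 difference of 1.102. AT3G45770 was most like PSBY (r = 0.94, rho = 0.89, and r = 0.63 within groups), although AT1G74070, also among its closest 3, was nearer within groups (r = 0.93, rho = 0.90, and r = 0.82 within groups). AT4G32060 was most like PSBW (r = 0.98, rho = 0.93, and r = 0.82 within groups). None of the closest features belonged to the 79 listed genes, but only 10 of these had a single-gene feature, so few of the 447 could have. SUFB had no feature that lists it alone and was not analysed here, so the labels were not checked against its transcript.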

How the data were processed

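Total RNA of 6 WT and 6 laf6 dark-adapted samples was measured on single-colour arrays, grouped and numbered by their titles. The authors deposited 1 linear intensity per feature and array. The sources used here do not give their scanner, background correction or scaling. Values run from 0 to 100 on each array, 15.7% are 0, and having only 6 arrays a group limits the precision.

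Intensities were quantile normalized, values deposited as 0 were kept at 0, and a floor was set at percentile 1 of positive values (0.00597) before log2. The 4 genes had a signal on every array. All 3439 features were fitted with limma 3.58.1 in R 4.3.3 without covariates, with Benjamini-Hochberg adjustment over all features. Ratios and ranks within arrays were tested by exact permutation over 924 splits in Python 3.11.15, and intervals of ratios hold the shifts this test does not reject. The code was tested on simulated data.

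Gene names come from an older platform annotation, matched by Entrez identifier to the RefSeq table of TAIR10.1 (690 of 692 single-gene features). Coordinates are left out because the array's build is unknown. The genes named are the 4 members, the listed genes measured, and from the 3 single-gene features closest to each member the first, plus AT1G74070, chosen after its values were seen. The members and lists were chosen with earlier results of these data known. A list of 9 genes of other tissues had 0 measured. Alternatives were other scalings, an offset of 0.1, filters, weights, blocks and left-out arrays.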

Additional observations from a re-analysis of the deposited data

How the results depend on the processing

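LHB1B2, PSAN and PSBY kept direction and side of the threshold under all 24 alternatives of the limma fit, and the percentile ranks of all 4 genes under all 14 of theirs. Averaging adjacent numbers, under which the exact test cannot pass, was not among these 14. PSBW fell short with median scaling (-0.45) and 75th percentile scaling (-0.36); the cause was not tested. With 1 array left out, log2 differences ran from 1.16 to 1.35 for LHB1B2, 1.67 to 1.79 for PSAN, 0.66 to 0.80 for PSBY and -1.37 to -1.25 for PSBW.

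Deviations of same-numbered arrays of the 2 groups correlated by 0.0966 to 0.184, against means of -0.040 to -0.020 with other numbers, and each array correlated best with its own number. Deviations sum to 0 within a group, which pushes the means with other numbers below 0 when same numbers correlate. These means are therefore no separate baseline. The data thus hint at conditions shared by number, but the labels do not say what a number marks and 1 pair lay below the 0.1 set as the limit for pairing. With the replicate number as a block, limma gave an adjusted p of 0.000614 for LHB1B2, 0.000102 for PSAN, 0.01005 for PSBY and 0.000136 for PSBW, at unchanged log2 differences of 1.23, 1.72, 0.73 and -1.31, and a sign-flip test over same-numbered arrays kept the call of every ratio (adjusted p = 0.0375 for 5 pairs and 0.875 for LHB1B2 to PSAN).

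Averaging adjacent numbers left the shifts at 1.21 (LHB1B2 to PSBY), 2.47 (LHB1B2 to PSBW), 1.18 (PSAN to PSBY), 2.44 (PSAN to PSBW) and 1.26 (PSBY to PSBW) short of the threshold, since 3 against 3 cannot pass. The shift of LHB1B2 to PSAN, which passed nowhere else, turned to -0.49 after quantile normalization and ran from -0.067 to 0.120 with 1 array left out, turning below 0 without WT replicate 3 or 5 or laf6 replicate 1, 2 or 4. PSB27, not called under any of its alternatives, stood at 0.00070 with 75th percentile scaling, at -0.70 without replicates 1 and 2, and at -0.605 to 0.0946 with 1 array left out. Over all features 428 were higher and 473 lower, against 252 and 903 as deposited, and 256 lower with adjacent numbers averaged. Among the 692 single-gene features 71 were higher and 101 lower, whether p-values were adjusted over these or over all features.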
